A study of Mus musculus with 11 samples.

Results

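Short-chain fatty acids, the acetate, propionate and butyrate that gut bacteria release when they ferment fiber, reach the colonic epithelium from the lumen. Colonocytes take them up through carriers of the apical and basolateral membranes, sense them through G protein-coupled receptors and burn butyrate in their mitochondria as a main fuel, while butyrate that reaches the nucleus inhibits histone deacetylases. The genes described here are 9 mouse genes of these steps, chosen by symbol: the carriers Slc16a1 and Slc5a8, the carrier chaperone Bsg, the efflux pump Abcg2, the receptors Ffar2, Ffar3 and Hcar2, and the butyrate-metabolizing enzymes Acads and Acsm3. All 9 were found among the 52550 genes of the deposited count table, and all 9 were abundant enough to be among the 15044 genes tested.

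The data are RNA sequencing of colonic epithelial cells from 6 FFD mice, fed a fiber-free diet, and 5 CD mice, whose diet held 7% cellulose as its sole fiber. All mice were RAG1 KO animals of the C57BL/6 strain, which lack mature T and B cells, and all received 1.5% dextran sulfate sodium (DSS), a polymer that injures the colonic epithelium, for 5 days after 4 weeks on their diet. There were no mice without DSS, so the diets are compared only after DSS. The authors report that RAG KO mice fed cellulose resisted colitis better than cellulose-free ones. Diet and severity of injury therefore cannot be told apart here. The authors also report that cellulose did not raise cecal short-chain fatty acids, among them acetate, propionate and butyrate. That measurement was made in other mice, which were not RAG KO animals and had been on the diets from birth. The sources used here give no fatty acid levels for the sequenced mice, so whether their supply differed between the diets was not tested. The sources used here do not state the age of the mice. One library was made per mouse, and the sample titles carry a 1 in every CD and a 2 in every FFD name, so a cage or batch that this digit might stand for cannot be told apart from the diet.

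Total counts were 10374154 to 27973285 in FFD mice, the lowest in FFD mouse 4, and 20853535 to 28588266 in CD mice. Rag1 averaged 1.08 ± 0.176 CPM in FFD and 1.17 ± 0.221 CPM in CD mice (SD, n = 6 and 5), and counts per gene do not show whether its deleted part was read. To check the epithelial label, 8 epithelial markers such as Epcam and Krt8 were summed, giving 12382 to 16250.4 CPM in FFD and 10704 to 12848 CPM in CD mice. Stroma and endothelium markers summed to 3.24 to 4.96 CPM in FFD and 4.75 to 6.47 CPM in CD mice. Macrophage and monocyte markers summed to 21.5 to 34.0 CPM in FFD and 16.8 to 23.4 CPM in CD mice. The 8 markers of T and B cells summed to 1.51 to 2.46 CPM in FFD and 1.55 to 2.38 CPM in CD mice. The RAG1 KO genotype lacks these cells, so their low sums do not test the isolation. CPM are read counts divided by the TMM-adjusted library total in megareads, and a log2 fold change above 0 means a higher level in FFD mice. Tests are edgeR's quasi-likelihood test over 15044 genes with Benjamini-Hochberg adjusted p and a threshold of 0.05. At that threshold the diets differed in 36.8% of all tested genes, with 18.2% higher in FFD mice and 18.6% lower.

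The comparison of the carriers Slc5a8 and Slc16a1 leads the results, and the stretches of DNA before their transcription start are shown first, together with that of the enzyme gene Acsm3, whose level varied most between FFD mice. Each line gives the 250 bases before the RefSeq start on build GRCm38.p6, 5′ to 3′ on the strand of the gene, and the capitals mark any match on either strand to the GC box GGGCGG, the CCAAT box CCAAT, the TATA box TATAAA or the E box CACGTG.
Slc5a8, chr10:88885742-88885991, plus strand: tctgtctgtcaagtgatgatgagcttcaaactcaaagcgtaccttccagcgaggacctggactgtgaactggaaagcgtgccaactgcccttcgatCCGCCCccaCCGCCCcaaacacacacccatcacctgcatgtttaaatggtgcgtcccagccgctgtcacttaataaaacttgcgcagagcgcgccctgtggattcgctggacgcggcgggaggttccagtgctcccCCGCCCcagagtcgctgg
Slc16a1, chr3:104638414-104638663, plus strand: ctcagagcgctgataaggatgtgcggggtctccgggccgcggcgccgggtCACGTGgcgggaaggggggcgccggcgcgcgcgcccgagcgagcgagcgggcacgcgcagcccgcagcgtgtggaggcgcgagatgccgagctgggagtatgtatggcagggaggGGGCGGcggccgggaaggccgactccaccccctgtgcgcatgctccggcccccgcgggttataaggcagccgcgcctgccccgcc
Acsm3, chr7:119760673-119760922, plus strand: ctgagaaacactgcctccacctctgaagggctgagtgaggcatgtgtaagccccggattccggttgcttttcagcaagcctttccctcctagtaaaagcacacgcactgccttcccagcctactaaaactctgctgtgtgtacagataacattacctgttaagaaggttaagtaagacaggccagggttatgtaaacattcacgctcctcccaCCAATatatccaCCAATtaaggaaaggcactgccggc
The Slc5a8 window held 3 GC boxes, the Slc16a1 window 1 GC box and 1 E box, and the Acsm3 window 2 CCAAT boxes. Among all 32851 windows of this length in the RefSeq table, 32.7% held a GC box, 33.8% a CCAAT box, 12.4% a TATA box and 6.02% an E box. The Slc16a1 window was also rich in G and C (76.4% of bases), against 58.8% for Slc5a8, 49.2% for Acsm3 and a median of 52.4% over all windows. The table holds windows for 7 of the 9 genes. A match is a description of letters and says nothing about binding.

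Slc5a8, which encodes the sodium-coupled monocarboxylate transporter SMCT1 of the apical membrane, was the member with the clearest difference. The gene lies on chromosome 10 of GRCm38 from 88885992 to 88929515 and has 15 exons. In FFD mice it ranged from 436 CPM to 559 CPM with a median of 483 CPM, against 353, 365, 342, 295 and 358 CPM in the 5 CD mice. Every FFD mouse lay above every CD mouse, a pattern of 8.91% of all tested genes, with 9.59% in the opposite order. The means were 487 ± 46.7 CPM in FFD and 343 ± 27.9 CPM in CD mice (SD, n = 6 and 5), 1.42-fold higher in FFD mice, with a log2 fold change of 0.51 (SE 0.083, edgeR adjusted p = 0.0013). No other member separated the diets completely.

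Slc16a1 encodes MCT1, the proton-coupled carrier that moves butyrate, lactate and ketone bodies in the direction of their gradient, and lies on chromosome 3 from 104638668 to 104658462. It ranged from 184 to 279.7 CPM in FFD mice with a median of 221 CPM, against 211, 243, 215, 186 and 209 CPM in CD mice. FFD mice held both the highest value, in FFD mouse 1, and the lowest, in FFD mouse 6, so that the CD mice lay inside the FFD range. The log2 fold change was 0.059 with a standard error of 0.10 (edgeR adjusted p = 0.68), and its sign turned to -0.088 with total counts in place of TMM and to -0.019 without FFD mouse 1. The 2 carriers can also be compared within each library, where the scaling of the library cancels. Per kilobase of exon there was 1.87 ± 0.398 times as much Slc5a8 as Slc16a1 in FFD mice and 1.34 ± 0.0678 times as much in CD mice (SD, n = 6 and 5). This ratio was 1.39 to 2.36 in FFD and 1.25 to 1.42 in CD mice, and FFD mouse 1, the mouse with the most Slc16a1, was the only FFD mouse within the CD range.

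Bsg encodes basigin (CD147), the glycoprotein that escorts MCT1 to the plasma membrane, and lies on chromosome 10 from 79704491 to 79711969. It was at 621 to 754 CPM in FFD mice with a median of 654 CPM, against 593, 674, 552, 626 and 592 CPM in CD mice. The ranges overlapped, and the log2 fold change of 0.14 (SE 0.076, edgeR adjusted p = 0.17) did not pass and was -0.015 with total counts in place of TMM. For the chaperone and for its carrier Slc16a1 the test thus did not separate the diets from the spread between mice.

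Abcg2 encodes BCRP, an ATP-driven pump of the apical membrane known for the export of drugs, urate and plant compounds, and lies on chromosome 6 from 58584523 to 58695676. It was at 66.2, 104.7, 60.5, 80.3, 75.6 and 100.8 CPM in FFD mice 1 to 6, against 60.7, 51.6, 38.6, 45.0 and 54.2 CPM in the CD mice. All FFD mice but 1, FFD mouse 3, exceeded the highest CD mouse. The means were 81.3 ± 18.02 CPM in FFD and 50.02 ± 8.54 CPM in CD mice (SD, n = 6 and 5), 1.63-fold higher in FFD mice (log2 fold change 0.70 ± 0.15 SE, edgeR adjusted p = 0.0042). Abcg2 and Slc5a8 kept their call when any 1 mouse was left out, with log2 fold changes of 0.61 to 0.79 for Abcg2 and 0.46 to 0.55 for Slc5a8. Counts per gene do not tell which of the start sites of Abcg2 was used.

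Several markers of surface colonocytes and of dividing crypt cells differed between the diets as well. A list of 8 markers of surface colonocytes summed to 16761 to 29052 CPM in FFD and 10222 to 14249 CPM in CD mice, with no overlap. This sum is mostly Lypd8, Ceacam1 and Muc13. Of the 8 markers, 6 were higher in FFD mice, among them Car4 at 746 CPM in FFD and 216 CPM in CD mice and Lypd8 at 8904 CPM in FFD and 3933 CPM in CD mice. Car4 and Krt20, though higher, overlapped between the diets, and Car1 and Aqp8 did not pass. The 8 markers of dividing crypt cells summed to 354 to 838 CPM in FFD and 834 to 1176 CPM in CD mice, with 5 lower, among them Pcna and Mcm2. The part of these shifts in the values of the members and of the other pathway genes given further on was not tested. In bulk RNA, fewer cells of a type and less RNA per cell cannot be told apart.

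**Figure D1:**
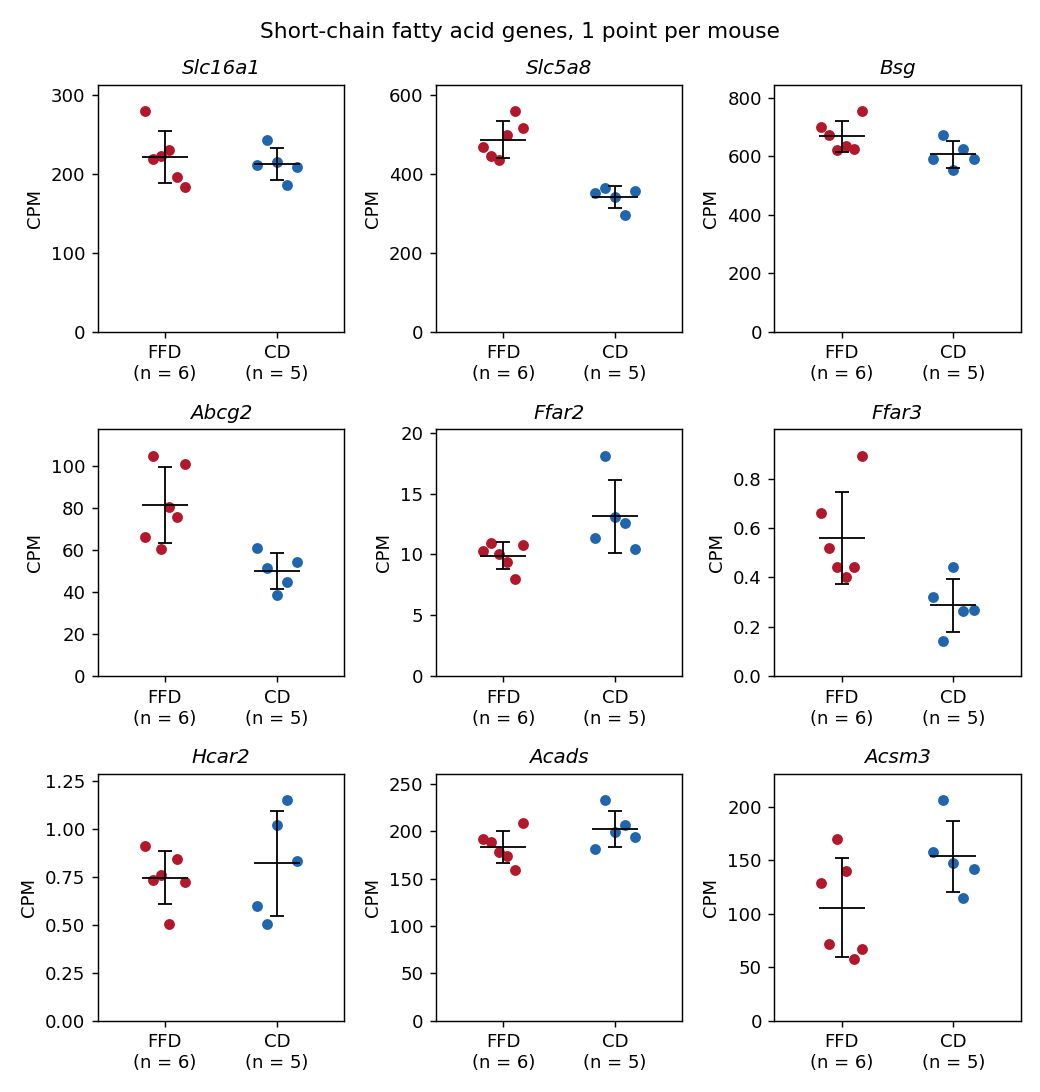
CPM (linear axes from 0) of the 9 genes in FFD (red, n = 6) and CD (blue, n = 5) mice, 1 point per mouse in the order of the mouse numbers, with the mean as a bar and the SD as whiskers. Slc5a8 is the panel with no overlap, at 436 to 559 CPM in FFD and 295 to 365 CPM in CD mice, and Acsm3 in FFD mice spreads from 57.4 to 170.1 CPM.

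The receptors were the least abundant members. Ffar2 encodes GPR43, a receptor for acetate and propionate found on enteroendocrine cells and leukocytes as well as on colonocytes, and lies on chromosome 7 from 30818348 to 30823775. It was at 8.01 to 10.98 CPM in FFD mice with a median of 10.2 CPM, against 11.4, 18.1, 13.1, 12.6 and 10.5 CPM in CD mice. In 4 FFD mice it lay below every CD mouse, and CD mouse 2 stood well above all others. Ffar2 was lower in FFD mice by a log2 fold change of -0.40 (SE 0.14, edgeR adjusted p = 0.034). The call did not survive the removal of CD mouse 2 (log2 fold change -0.25), the only mouse to move the value by over 1.5 times. It was likewise lost when CD mouse 3 (-0.40) or CD mouse 4 (-0.41), or on the fiber-free side mouse 4 (-0.39) or mouse 5 (-0.35), was left out. Over all alternatives the adjusted p of Ffar2 was 0.0091 to 0.10.

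Ffar3, which encodes the propionate and butyrate receptor GPR41 and lies near Ffar2 on chromosome 7 from 30854330 to 30856178, had few reads. There were 16, 12, 11, 4, 11 and 16 reads in FFD mice 1 to 6, against 8, 4, 10, 8 and 7 reads in the CD mice. As CPM this was 0.403 to 0.892 in FFD and 0.144 to 0.443 in CD mice, and 3 FFD mice lay above every CD mouse. The fit gave a log2 fold change of 0.98 (SE 0.32, edgeR adjusted p = 0.029), but the gene reached the expression filter through 4 FFD mice and only 1 CD mouse, the 5 needed, so its test leans on the diet in which it was high. Without a filter the adjusted p was 0.10, and over all alternatives that tested it the range was 0.024 to 0.10. The call was lost without CD mouse 2 (log2 fold change 0.82), CD mouse 4 (0.95) or CD mouse 5 (0.97) and with total counts in place of TMM (0.82), and without FFD mouse 1, 2, 3 or 6 the gene fell below the filter. Within each library, Ffar2 exceeded Ffar3 per kilobase of exon by 8.04 to 15.4 times in FFD and 19.6 to 83.3 times in CD mice. The ranges of this ratio did not overlap, but it rests on 4 to 16 reads of Ffar3 per mouse, its highest value came from CD mouse 2 with 4 reads, and it is a description with no test.

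Hcar2 encodes GPR109A, a receptor for butyrate, beta-hydroxybutyrate and niacin that is also abundant on macrophages and neutrophils, and lies on chromosome 5 from 123863570 to 123865499. It had 5 to 22 reads per mouse in FFD and 14 to 35 in CD mice. The levels were 0.504 to 0.909 CPM in FFD mice with a median of 0.748 CPM, against 0.597, 0.504, 1.02, 1.15 and 0.835 CPM in CD mice, and the CD range enclosed 5 of the 6 FFD values. The log2 fold change was -0.11 with a standard error of 0.25 (edgeR adjusted p = 0.76), and it turned to 0.053 without CD mouse 4.

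Markers of cells other than colonocytes that carry these receptors were counted in the same libraries. The 8 neutrophil markers summed to 66.9 to 225 CPM in FFD and 24.1 to 65.4 CPM in CD mice, but this sum is nearly all Ly6g, which averaged 153 CPM in FFD and 33.5 CPM in CD mice. Of the others, S100a8 was higher, at 2.46 CPM in FFD and 0.877 CPM in CD mice, while S100a9 (2.59 CPM in FFD and 1.42 CPM in CD mice) and Csf3r (0.795 CPM in FFD and 0.699 CPM in CD mice) did not pass. Cxcr2 had 35 reads in FFD and 38 in CD mice, Retnlg 34 in FFD and 36 in CD mice, and Mpo and Elane had 9 and 7 reads over all mice. The 10 macrophage and monocyte markers summed to 21.5 to 34.0 CPM in FFD and 16.8 to 23.4 CPM in CD mice. Of these 10, 2 were higher, C1qb and Mrc1, and 8 did not pass. The 8 enteroendocrine markers summed to 326 to 562 CPM in FFD and 223 to 414 CPM in CD mice, with 3 higher, Chga, Chgb and Tph1. The other 5 did not pass, with log2 fold changes of 0.26 (Gcg), 0.20 (Neurod1), -0.042 (Sct), -0.13 (Pyy) and -0.22 (Insl5). None of these markers was at 0 over all mice. The part of these cells in the receptor values was not tested.

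Acads and Acsm3, the enzymes among the members, did not pass the test. Acads encodes the short-chain acyl-CoA dehydrogenase, the enzyme of the first oxidation step of butyryl-CoA in mitochondria, and lies on chromosome 5 from 115110299 to 115119346. It was at 159 to 209 CPM in FFD mice with a median of 184 CPM, against 181, 233, 199, 206 and 193 CPM in CD mice. In 3 FFD mice it lay below every CD mouse, and the other 3 overlapped with them. The log2 fold change was -0.14 with a standard error of 0.081 (edgeR adjusted p = 0.19), and with total counts in place of TMM it was -0.29 and passed (adjusted p = 0.015, against 0.51 as the highest over all alternatives).

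Acsm3 encodes a mitochondrial acyl-CoA synthetase that activates butyrate and other short and medium fatty acids, and lies on chromosome 7 from 119760923 to 119787513. It was at 128, 72.0, 170.1, 139.9, 57.4 and 67.0 CPM in FFD mice 1 to 6, against 158, 206, 148, 115 and 142 CPM in the CD mice. FFD mice 2, 5 and 6 lay below every CD mouse, while FFD mice 1, 3 and 4 lay within the CD range, with no value between 72.0 and 115 CPM in any mouse. The coefficient of variation of Acsm3 was 43.9% over FFD mice and 21.7% over CD mice, and the value in FFD mice was the highest of any member in either diet. The log2 fold change was -0.54 with a standard error of 0.26 (edgeR adjusted p = 0.13). It passed without FFD mouse 3 (log2 fold change -0.72, adjusted p = 0.034), and over all alternatives the adjusted p was 0.034 to 0.29. The ratio of Acsm3 to Acads per kilobase of exon was 0.147 to 0.439 in FFD and 0.256 to 0.408 in CD mice, so FFD mice exceeded the CD range on both sides. Of the exon bases of Acsm3, 39.7% overlap exons of Eri2 on the other strand, and the sources used here do not say whether the counting used strand. Eri2 itself averaged 10.5 CPM in FFD and 12.8 CPM in CD mice (edgeR adjusted p = 0.14).

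**Figure D2:**
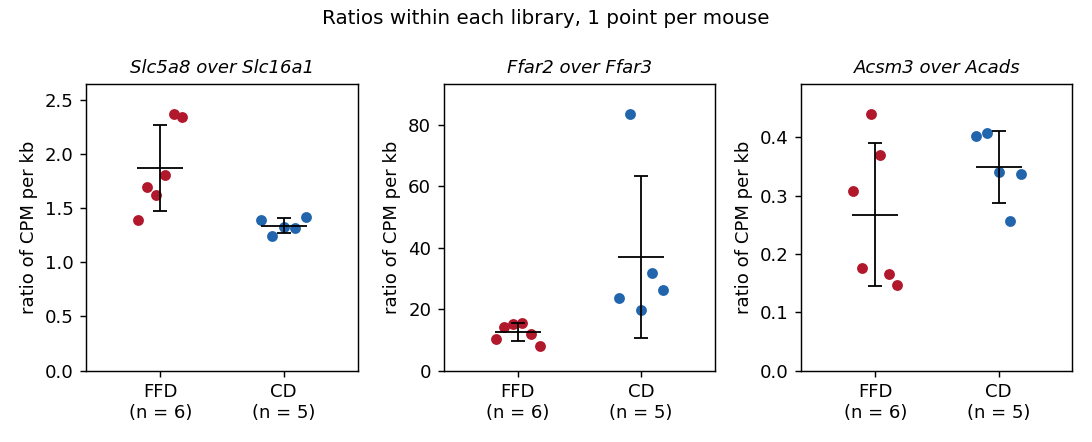
Ratio of CPM per kilobase of exon within each library for 3 pairs of genes (linear axes from 0), 1 point per mouse in FFD (red, n = 6) and CD (blue, n = 5), with mean and SD. The ratio of Slc5a8 to Slc16a1 reaches 2.36 in FFD mice and 1.42 in CD mice, that of Ffar2 to Ffar3, which rests on 4 to 16 reads of Ffar3 per mouse, is 8.04 to 15.4 in FFD and 19.6 to 83.3 in CD mice, and that of Acsm3 to Acads spreads more widely in FFD mice (0.147 to 0.439) than in CD mice (0.256 to 0.408).

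Counted over the set, 3 of 9 members were higher in FFD mice (Slc5a8, Abcg2 and Ffar3), 1 was lower (Ffar2) and 5 did not pass, against 18.2% higher and 18.6% lower among all tested genes. Ffar3 entered the test mainly through the mice of the diet in which it was high and lost its call without a filter, and the 2 other higher genes of 9 are a share near the background. The median log2 fold change of the 9 genes was 0.059, that of all tested genes -0.033. The number higher was 2 or 3 and the number lower 0 to 2 with 1 mouse left out. The count of lower members was 0 in each fit in which Ffar2 lost its call, and 2 without FFD mouse 3, when Acsm3 was added. The higher ones comprised 1 carrier, the pump and 1 receptor, and neither enzyme passed.

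**Figure D3:**
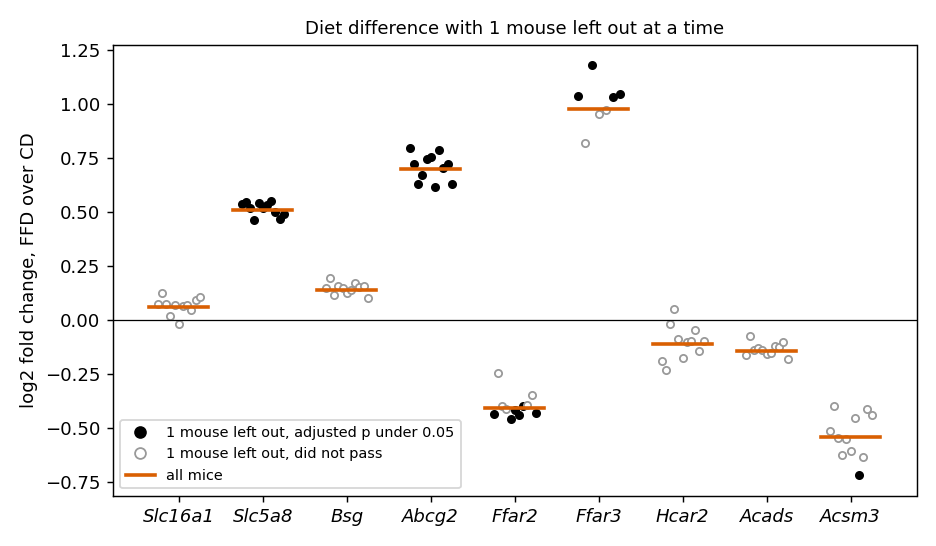
Log2 fold change of FFD over CD for the 9 genes with all mice (orange bar) and with 1 of the 11 mice left out (points; filled where the adjusted p was under 0.05). Slc5a8 (0.46 to 0.55) and Abcg2 (0.61 to 0.79) are filled throughout, Ffar2 and Ffar3 in part, Acsm3 only without FFD mouse 3 (-0.72), and 4 points of Ffar3 are missing because it fell below the filter.

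Levels per length placed the members over a wide range. Each length was the union of the exons of all annotated transcripts of a gene. Abcg2 had 13 such transcripts, against 1 each for Slc5a8 and Slc16a1. Such a union can be longer than any transcript in use, which would lower the level and the rank of a gene. Bsg led with 369 ± 28.7 CPM per kilobase of exon in FFD and 335 ± 24.995 in CD mice (SD, n = 6 and 5), above 99.1% of tested genes. Next came Slc5a8, with 91.4 ± 8.75 CPM per kilobase in FFD and 64.3 ± 5.23 in CD mice, and Acads, with 80.9 ± 7.51 in FFD and 89.2 ± 8.48 in CD mice. Acads ranked above Slc5a8 in CD mice with no overlap of their ranges, whereas in FFD mice Slc5a8 had the higher mean and the ranges overlapped. Slc16a1 followed at 50.1 ± 7.52 CPM per kilobase in FFD and 48.1 ± 4.60 in CD mice, then Acsm3 at 21.4 ± 9.41 in FFD and 31.1 ± 6.76 in CD mice. Abcg2 was at 9.98 ± 2.21 CPM per kilobase in FFD and 6.13 ± 1.05 in CD mice. The range of Abcg2 overlapped that of Acsm3 above it in FFD mice and that of Ffar2 below it in CD mice. Ffar2 was near the middle of all tested genes (49.9% lay below it), and Hcar2 and Ffar3, at 0.386 and 0.303 CPM per kilobase in FFD and 0.425 and 0.155 in CD mice, exceeded 15.8% and 10.2% of them.

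**Figure D4:**
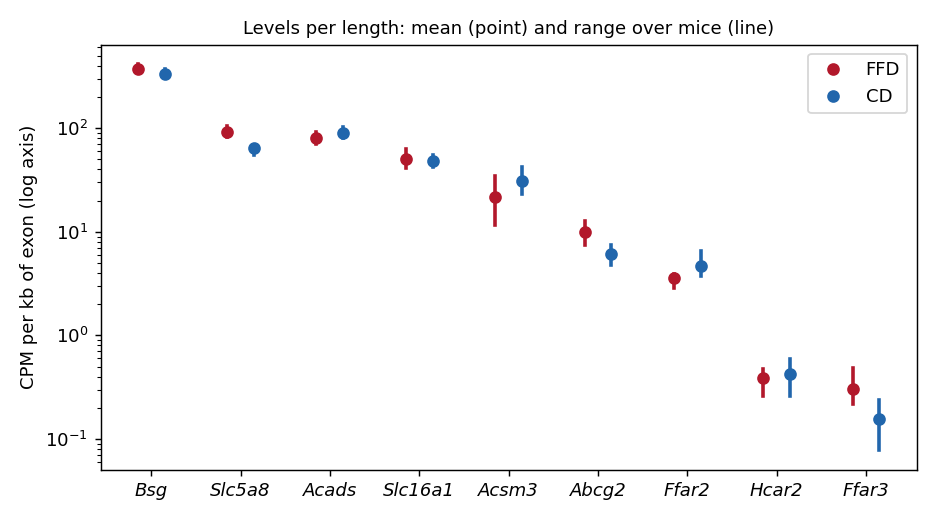
CPM per kilobase of exon (log axis) of the 9 genes in FFD (red) and CD (blue) mice, ordered by the mean in FFD mice. Points are means and lines run from the lowest to the highest mouse (n = 6 and 5). The genes span from 369 (Bsg) to 0.303 (Ffar3) CPM per kilobase in FFD mice, and Slc5a8 and Acads change places between the diets.

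Other genes of the same steps were taken from lists drawn up by function. Over 46 tested genes of 55 listed, 8 rose with the fiber-free diet, 9 fell and 29 did not pass, with a median log2 fold change of 0.053. These shares lie close to the 18.2% higher and 18.6% lower among all tested genes, so the counts say nothing particular about these genes, and the shorter lists that follow have the same background. With total counts in place of TMM, 14 of them were lower. Of 7 tested genes of transport, 3 rose in FFD mice and none fell. These were Slc26a3, an apical exchanger of chloride for bicarbonate that is also 1 of the 8 surface markers, and the sodium-proton exchangers Slc9a3 (NHE3) and Slc9a2 (NHE2), which acidify the layer at the cell surface through which fatty acids enter in their protonated form. Slc26a3 was at 482 ± 136 CPM in FFD and 189.96 ± 31.8 CPM in CD mice (log2 fold change 1.34, edgeR adjusted p = 0.0011). Slc9a3 was at 229 ± 63.9 CPM in FFD and 94.2 ± 24.4 CPM in CD mice (log2 fold change 1.28, edgeR adjusted p = 0.0015). Slc9a2 was at 193 ± 30.5 CPM in FFD and 138 ± 14.8 CPM in CD mice (log2 fold change 0.49, edgeR adjusted p = 0.0052). The other monocarboxylate carriers were low and did not pass: Slc16a3 averaged 10.1 CPM in FFD and 7.92 CPM in CD mice, and Slc16a6 averaged 8.76 CPM in FFD and 9.04 CPM in CD mice.

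Of 12 tested genes of sensing, 2 rose in FFD mice and 2 fell. Gnaq, the G protein subunit through which GPR43 can raise calcium, was at 85.6 ± 14.9 CPM in FFD and 61.2 ± 2.81 CPM in CD mice (log2 fold change 0.48, edgeR adjusted p = 0.0042). All FFD mice lay above all CD mice, as in 8.91% of all tested genes. The other gene that rose was Ffar4, a receptor for long-chain fatty acids, named after its value was seen, with a log2 fold change of 0.43. Of 4 class I histone deacetylases, the enzymes that butyrate inhibits, Hdac2 and Hdac3 fell. For both, every FFD mouse lay below every CD mouse, as in 9.59% of all tested genes. Hdac2 was at 47.6 ± 7.71 CPM in FFD and 64.8 ± 3.79 CPM in CD mice (log2 fold change -0.44, edgeR adjusted p = 0.0062), and Hdac3 at 59.5 ± 2.46 CPM in FFD and 69.7 ± 5.76 CPM in CD mice (log2 fold change -0.23, edgeR adjusted p = 0.012). Hdac3 lost its call in 2 of 18 alternatives, without a filter on low counts (-0.22) and with the replicate number as a block (-0.22). Hdac1 and Hdac8 did not pass, with log2 fold changes of 0.037 and -0.14. The olfactory receptor genes Olfr78 and Olfr558, whose products respond to acetate and propionate and to butyrate and longer acids, were at 1.58 and 0.570 CPM in FFD and 1.25 and 0.486 CPM in CD mice and did not pass either.

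Among the acyl-CoA synthetases, 3 of 7 listed genes were tested and 1 fell. Acss2, the enzyme that makes acetyl-CoA from acetate in cytosol and nucleus, was at 64.6 ± 16.7 CPM in FFD and 96.8 ± 11.5 CPM in CD mice (log2 fold change -0.58 ± 0.15 SE, edgeR adjusted p = 0.010). In 5 of 6 FFD mice it lay below every CD mouse. Its mitochondrial relatives did not pass, at -0.26 for Acss1 (edgeR adjusted p = 0.13) and -0.78 for Acss3 (edgeR adjusted p = 0.15). The relatives of Acsm3 were barely detected, with 30 reads of Acsm1, 42 of Acsm2, 9 of Acsm4 and 11 of Acsm5 over all 11 mice, against 33307 of Acsm3.

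Of 13 tested genes of mitochondrial oxidation, 3 rose and 2 fell in FFD mice. Acadl, the long-chain acyl-CoA dehydrogenase, was at 429 ± 71.4 CPM in FFD and 249.7 ± 29.6 CPM in CD mice (log2 fold change 0.78, edgeR adjusted p = 0.0011), and the subunits of the trifunctional protein rose by 0.36 (Hadha) and 0.20 (Hadhb) on the log2 scale. Those that fell were Echs1, the enoyl-CoA hydratase that follows Acads on short chains (-0.16, edgeR adjusted p = 0.043), and Acat1, which splits acetoacetyl-CoA (-0.24, edgeR adjusted p = 0.049). Echs1, Acat1 and Hadhb were close to the threshold: Echs1 lost its call in 12 of 18 alternatives, Acat1 in 13 and Hadhb in 11. The other acyl-CoA dehydrogenases of fatty acids did not pass, with log2 fold changes of 0.16 for Acadvl (very long chains), 0.070 for Acadm (medium chains) and -0.14 for Acads.

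Of 5 tested genes of ketone bodies, 2 fell in FFD mice. Bdh1, which interconverts acetoacetate and beta-hydroxybutyrate, was at 139 ± 10.6 CPM in FFD and 163 ± 7.63 CPM in CD mice (log2 fold change -0.24, edgeR adjusted p = 0.013). Every FFD mouse lay below every CD mouse for Bdh1, as in 9.59% of all tested genes, and its call was lost with the replicate number as a block (-0.21). Aacs, which returns acetoacetate to lipid synthesis, fell by 0.36 on the log2 scale (edgeR adjusted p = 0.025), a call that was lost without CD mouse 3 (-0.30) or CD mouse 5 (-0.26). Of 6 genes of propionate use, 2 fell: Mmab, which prepares the cobalamin cofactor of the pathway (log2 fold change -0.37, edgeR adjusted p = 0.0066), and Pcca, a subunit of propionyl-CoA carboxylase (-0.26, edgeR adjusted p = 0.021). Pcca lost its call without CD mouse 1 (-0.21) or CD mouse 2 (-0.22) and with the replicate block (-0.24). Exons of Acss1, Acss2, Acss3, Hadha, Echs1, Bdh1, Oxct1 and Pcca overlap those of a gene on the other strand too, by 0.859% (Hadha) to 33.9% (Acss3) of their bases.

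**Figure D5:**
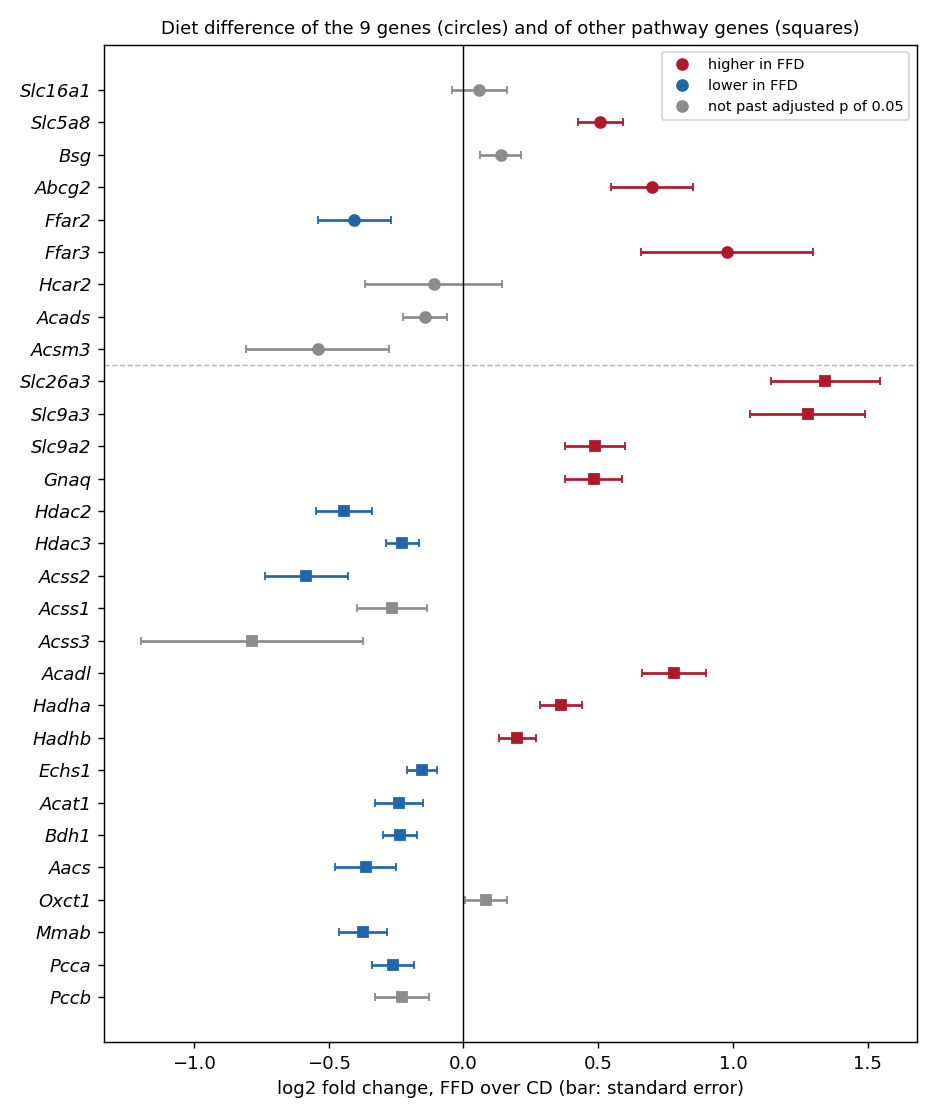
Log2 fold change of FFD over CD (horizontal axis, bars are standard errors) for the 9 genes (circles) and the named genes of the other pathway lists (squares), red where higher, blue where lower in FFD mice when the adjusted p was under 0.05 and gray otherwise. The exchangers Slc26a3 (1.34) and Slc9a3 (1.28) lie farthest to the right, and Acss2 (-0.58), Hdac2 (-0.44) and Ffar2 (-0.40) are the called genes farthest to the left.

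The genes whose levels followed those of a member most closely from mouse to mouse, with the mean of each diet removed, differed between the members. Over the 11 mice Acsm3 was followed by Itih5 (Pearson r = 0.98), Ndrg2 (0.98) and Ctdspl (0.97), Slc5a8 by Pde3a (0.94), Tmem220 (0.94) and Rmdn1 (0.91), and Abcg2 by Prkce (0.94), Acnat1 (0.94) and the carboxylesterase gene Ces2e (0.93). All of the genes that followed Slc5a8 or Abcg2 were also higher in FFD mice, with log2 fold changes of 0.34 to 0.87. The 18.2% higher among all tested genes is no background for them, because they were picked by their likeness to genes already called. Among the genes that followed other members, Lgals2 (-1.25, near Acads) and Ctdspl (-0.35, near Acsm3) were lower and the rest did not pass. Itih5, the gene nearest to Acsm3, was at 0.21, against -0.54 for Acsm3 itself. Bsg was followed by Resp18 (0.96), Acadvl (0.95) and Psap (0.94), Slc16a1 by Mapk15 (0.96), Ythdf2 (0.92) and Hottip (0.92), and Ffar2 by Tspyl1 (0.97), Ino80b (0.93) and Cebpa (0.92). Acads was followed by Nkg7 (0.95), Ino80b (0.93) and Lgals2 (0.93), while the genes nearest to Hcar2 (Cdh12, Lmntd1 and Ociad1, 0.93 to 0.97) and Ffar3 (Cyth3, Arfgap2 and Col11a2, 0.86 to 0.89) rest on few reads of the members. These are the highest of about 15044 correlations each, the mice share diet and cohort, and the values are a description only.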

How the data were processed

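Colonic epithelial RNA of 6 FFD and 5 CD mice was analysed. The authors shook cells off the colon with DTT and EDTA, purified them on a Percoll gradient, made poly(A) libraries, used the Qiagen CLC Workbench (10.0.1) to map trimmed reads to GRCm38, and deposited raw counts per gene. The submitters' processing notes list FastQC, DESeq2 1.22.2 and R 3.5.1. For annotation release, multi-mapping reads and strand, the setting is not given in the sources used.

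Counts were filtered (filterByExpr, minimum count 10, minimum total count 15), scaled by TMM (factors 0.893 to 1.08) and tested for diet with the quasi-likelihood test of edgeR 4.0.16 in R 4.3.3, and DESeq2 1.42.0 was an alternative. Standard errors are the log2 fold change over the root of F. The procedure was tested on simulated data. Libraries of 1 diet differed beyond sampling noise (lowest chi-square over its degrees of freedom 11.1). Exon lengths came from GENCODE M21 (97.5% of tested genes matched) and likeness from log2 CPM with a prior count of 2. The symbol Mut stood for Mmut.

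The members and lists were chosen with earlier results of these data known. Named genes are all members, up to 3 genes with the smallest p of each other pathway list, genes that changed against the majority of their list, and the 3 genes nearest to each member (predicted genes left out). Eri2, Ffar4, Hdac1, Hdac8, Olfr78, Olfr558, Acadm, Slc16a3, Slc16a6 and the marker genes are named outside this rule, after their values were seen. Acsm1, Acsm2, Acsm4, Acsm5, Ffar1, Hcar1, Gpr84 and Rag1 are outside this rule too.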

Additional observations from a re-analysis of the deposited data

Results flagged for a closer look

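In 58 groups (the 9 members and 20 other pathway genes in each diet) the highest or lowest mouse was compared with the rest by Dixon's ratio of gap to range, which flags about 1 in 20 groups by chance. No member had an outlying mouse, and 3 values stood apart. Hadhb was at 218 CPM in CD mouse 2, against 189.7 to 197 CPM in the other CD mice. Pccb, a subunit of propionyl-CoA carboxylase, was at 184 CPM in CD mouse 2, against 129 to 142 CPM in the other CD mice. Aacs was at 77.5 CPM in FFD mouse 4, the mouse with the lowest total count, against 98.1 to 108 CPM in the other FFD mice.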

How the results depend on the processing

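Slc5a8 and Abcg2 kept direction and call in all 18 alternatives, at log2 fold changes of 0.35 to 0.55 and 0.54 to 0.79. Total counts in place of TMM shifted all genes by a median of -0.15 and gave 1636 genes higher and 4863 lower, with 2 members and 14 other pathway genes lower. In that setting Slc16a1 was at -0.088, Bsg at -0.015 and Oxct1, which was not called, at -0.065, Acads passed at -0.29, and Ffar3 lost its call at 0.82. Without a filter Ffar3 was at 0.98 and lost its call (adjusted p = 0.10, range 0.024 to 0.10). It fell below the strict filter (minimum count 50) and below the filter with the replicate block. With 1 mouse left out, genes higher numbered 2281 to 3086 and genes lower 1983 to 2993, members higher 2 to 3 and lower 0 to 2, and other pathway genes higher 7 to 10 and lower 6 to 9. Ranges of log2 fold change were then -0.019 to 0.12 for Slc16a1, -0.46 to -0.25 for Ffar2, 0.82 to 1.18 for Ffar3, -0.23 to 0.053 for Hcar2 and -0.72 to -0.40 for Acsm3. The replicate numbers did not pair the mice (correlations of deviations -0.28 to 0.23 over 5 pairs; 4 of 10 mice were nearest to their own number). With the replicate block, which leaves out FFD mouse 6, 1844 genes and 4 other pathway genes were lower, and Hdac3 (-0.22), Hadhb (0.17), Echs1 (-0.15), Acat1 (-0.19), Bdh1 (-0.21) and Pcca (-0.24) lost their calls. Where no construction of the setting shows it, the cause was not tested. Ffar3 and Hcar2 had 4 to 35 reads per mouse, and how far depth and how far the spread between mice set their errors was not tested.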

Other observations

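Among the 36 pairs of members, the levels of Ffar2 and Acads went together most closely over the 11 mice once the mean of each diet was removed (r = 0.86), followed by Bsg and Acads (0.83) and Slc16a1 and Acsm3 (0.72). Slc5a8 and Slc16a1 did not go together (r = -0.084). These values were looked up after the data were seen, the mice share diet and cohort, and they are given as a description. Several receptors of related ligands were below the expression filter, with 88 reads of the long-chain fatty acid receptor gene Ffar1, 12 of the lactate receptor gene Hcar1 and 18 of the medium-chain fatty acid receptor gene Gpr84 over all mice.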
